A study of Mus musculus with 45 samples.

Results

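The genes described here are those that both polarizing stimuli moved in the same direction from the resting state of mouse bone marrow-derived macrophages. For each of 15 mice, the mean of its M1 and M2 libraries was compared with its M0 library, and a gene was counted when M1 and M2 each also differed from M0 in that direction. All 45 libraries entered, and of 12905 genes tested 2383 were raised by both stimuli and 2796 were lowered by both. All macrophages had been grown from bone marrow in M-CSF for 6 days, then harvested and seeded again. After that, M0 cultures were left unstimulated, M1 cultures received IFN-γ and LPS, and M2 cultures received IL-4. The mice were C57BL/6N animals between 6 and 10 weeks old, 5 each of *Famin* p.254I, p.254V and p.284R genotype, bred as littermates from heterozygous parents. The alleles encode amino acid variants of FAMIN, an enzyme of purine nucleosides, and each mouse was taken to have given 1 culture of each polarization.

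IFN-γ and LPS signal through NF-κB and interferon regulatory factors and drive a microbicidal program, whereas IL-4 signals through STAT6 and drives a program linked to tissue repair. Both are often described as opposite poles, and most comparisons set M1 against M2. Resting macrophages in M-CSF still divide, clear dying cells and sense their surroundings through scavenger and chemoattractant receptors. What the poles have in common is read here from the genes that leave the resting level together.

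The libraries held between 17239009 and 43740283 counts each (median 27553642). The labelled cell type was checked against 8 macrophage markers, among them *Adgre1*, *Csf1r* and *Lyz2*, whose summed level was between 20039 and 33462 CPM in M0, between 11291 and 15154 CPM in M1 and between 9635 and 13877 CPM in M2. *Lyz2* alone averaged 17018.5 CPM in M0, 5980 in M1 and 5318 in M2, and 5 of the 8 markers were lower and 0 higher with both stimuli. Of the other cell types, the genes of mast cells and erythroid cells summed to at most 0.320 CPM in any library. Markers of neutrophils summed to between 31.1 and 333 CPM in M0, 46.9 and 153 CPM in M1 and 18.6 and 84.0 CPM in M2, and stromal markers to between 17.4 and 92.2, 6.87 and 21.1, and 10.1 and 34.1 CPM. Both sums overlapped between the groups, but 7 of 9 neutrophil markers (*Mpo* and *Cxcr2* being the others) and 4 of 5 stromal markers, *Col1a1* and *Col1a2* among them, were lower with both stimuli, so they moved with the lowered genes below. Their part in those results was not tested. *Cd4*, the only T cell marker tested, and the only B cell marker tested were lower with both, and the B cell markers summed to at most 11.8 CPM.

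A few libraries stood apart. The M1 library of p.254I mouse 5 held M2 genes that other M1 libraries lacked, with *Retnla* at 49.1 CPM against at most 0.249 CPM in the others and *Arg1* at 40.8 against at most 0.912 CPM. These levels were between 1.5% and 3.96% of the M2 medians for *Retnla*, *Arg1*, *Mgl2*, *Chil3* and *Rnase2a*. The M0 and M2 libraries of p.254I mouse 4 held interferon-response and acute-phase genes, with *Ccl5* at 563 and 288 CPM against at most 13.5 and 17.4 CPM in the other libraries of the same polarization. Without these 3 libraries, 2405 genes were raised and 2742 were lowered by both stimuli, and 141 of the 150 and 508 of the 521 genes moved at least 2-fold kept that call. *Retnla*, *Arg1* and *Kcnd3* were no longer called raised at least 2-fold by both without the M1 library of mouse 5.

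Calls rest on edgeR's quasi-likelihood test with each mouse as a block and a Benjamini-Hochberg adjusted p under 0.05, and levels are CPM, the share of a library's counts after TMM scaling. The mean of M1 and M2 was above M0 for 4965 genes (38.5% of those tested) and below it for 5268 (40.8%). M1 alone was above M0 for 5020 genes (38.9%) and below for 5406 (41.9%), and M2 alone was above for 4984 (38.6%) and below for 5354 (41.5%). Both stimuli raised 2383 genes (18.5%) and lowered 2796 (21.7%). A further 3312 genes were called in both comparisons with opposite signs. Of the 10233 genes whose mean was called, 5054 were not called in the same direction for each stimulus, so a moved mean alone did not describe a shared change. M1 and M2 share their M0 libraries, so the comparisons are not independent of each other, and the overlap is given as a count only.

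For a part of the genes, mice that carry the same replicate number, from 1 to 5, changed alike in all 3 genotypes. The mean change of *Cx3cr1*, in log2(CPM + 1), was -3.04, -2.57 and -2.90 in the p.254I, p.254V and p.284R mice numbered 1, and -4.57, -4.62 and -4.89 in those numbered 3. In a test over all genes the mean change differed between the numbers for 2838 (22% of those tested). What the number stands for is not given in the sources used here. The 15 mice may therefore not be independent, and p-values that count 15 may be too small. With the counts summed over the 3 mice of a number, which leaves 5 units, 2123 genes were raised and 2297 lowered by both stimuli, and 141 of the 150 and 506 of the 521 genes moved at least 2-fold kept that call. With a term for number by stimulus in place of this, 2509 were raised and 3007 lowered.

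The scaling set the balance between the directions. With TMM, 46.0% of the shared calls were upward. With total counts as library sizes, 1685 genes were raised and 3544 lowered (32.2% upward), and with upper quartile scaling 1933 and 3277 (37.1% upward). Total counts moved the median log2 fold change of all genes from -0.024 to -0.126 for M1 and from -0.023 to -0.088 for M2. The larger changes depended less on it. At least 2-fold with each stimulus, 150 genes were raised (1.16% of those tested) and 521 were lowered (4.04%), so 22.4% were upward, against 17.4% with total counts and 18.7% with the upper quartile.

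**Figure D1:**
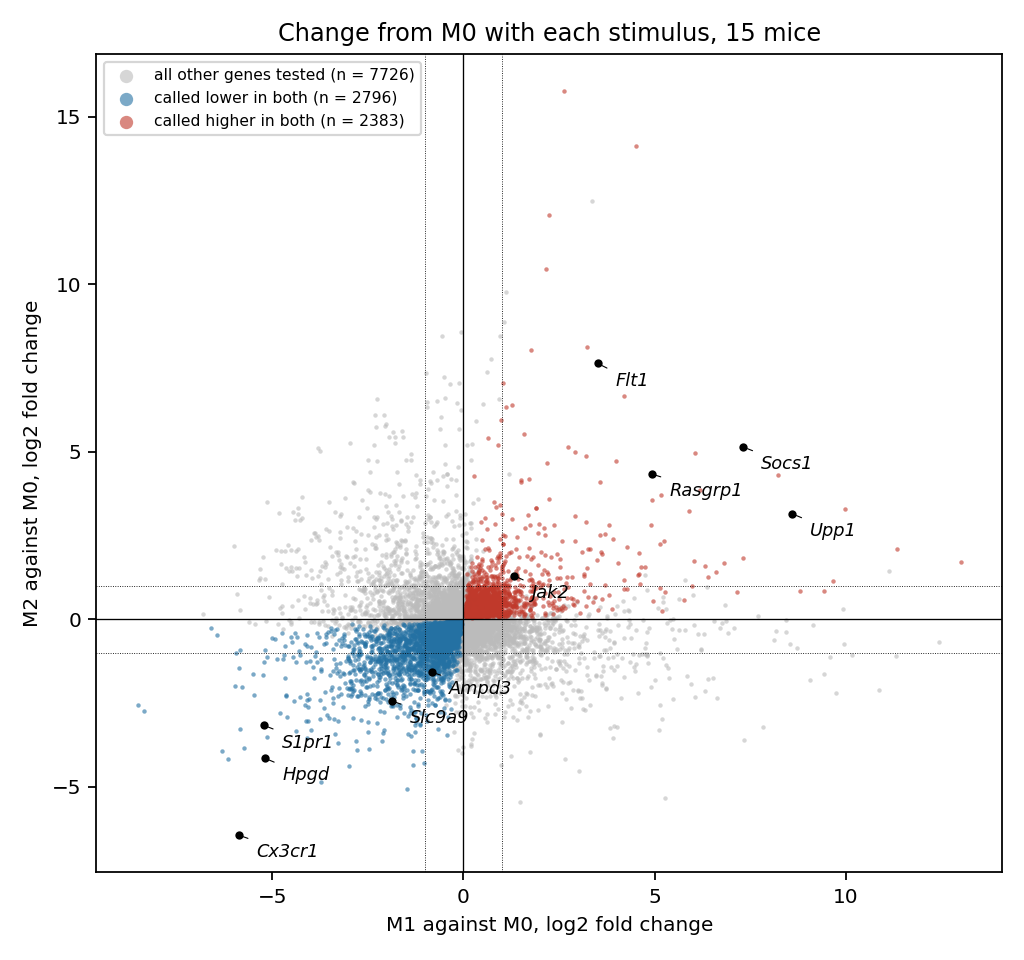
Log2 fold change of M2 against M0 (vertical) and of M1 against M0 (horizontal) for each of 12905 genes tested, over 15 mice, with the genes called higher (2383) or lower (2796) with both stimuli in colour and dotted lines at a 2-fold change. The lower left corner holds more of the large shared changes (521 genes) than the upper right (150).

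The genes lowered at least 2-fold were a larger share of the resting transcriptome. Summed over the 521 genes, M0 libraries held between 40481 and 69116 CPM (median 56360), M1 libraries between 14276 and 19607 (median 15894) and M2 libraries between 12113 and 19043 (median 16025). The M0 sums lay above every polarized library, and those of M1 and M2 overlapped. The 150 raised genes summed to between 3160 and 4165 CPM in M0 (median 3584), between 27009 and 36371 in M1 (median 33665) and between 11091 and 24455 in M2 (median 17659). These sums follow from how the genes were chosen and are a description. Single members were mostly scarce in M0, with a median of 2.65 CPM for the lowered and 0.888 CPM for the raised genes against 21.4 CPM for all genes tested, and 57 of the 521 reached 100 CPM.

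Of the 521 lowered genes, M1 and M2 themselves differed for 326, with M2 above M1 in 229 and M1 above M2 in 97, and 195 were not called. Of the 150 raised genes, 76 were higher in M1, 52 were higher in M2 and 22 were not called, where M1 and M2 differed for 82.1% of all genes tested (10589). Every one of the 15 mice moved the same way with both stimuli for 352 of the 521 (67.6%) and 106 of the 150 (70.7%).

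Just inside the 2-fold limit stood *Atp8a2* (log2 fold change 1.00 in M1 and 1.57 in M2) and *Lama3* (-5.95 and -1.001), and just outside it *H2-T-ps* (1.16 and 0.999) and *Per3* (-0.998 and -1.69). At the adjusted p limit, *Eed* was just inside at 0.0498 in M2 and *Abcf3* just outside at 0.05004 in M1 among raised genes, and *9430015G10Rik* was just inside at 0.0499 in M1 among lowered ones.

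*Cx3cr1*, the receptor for the chemokine fractalkine, lay between 5.22 and 50.4 CPM in M0 (median 20.4), between 0.0456 and 0.852 CPM in M1 (median 0.304) and between 0 and 0.613 CPM in M2 (median 0.190). Every M0 library was above every polarized one, and the fitted level was 58.6-fold lower in M1 and 87.6-fold lower in M2, log2 fold changes of -5.87 (SE 0.17, adjusted p 2.6e-25) and -6.45 (SE 0.18, adjusted p 2.6e-25, n = 15 mice, edgeR). The gene, at chr9:119901616-120069879 on the minus strand of GRCm38, overlaps 6 annotated genes on the other strand, from which its reads cannot be told apart because the use of strand in counting is not stated. Its start region, shown for the gene lowered most, holds 1 TTTGAA hexamer (capitals), the core of a cell cycle element taken up with the cell division genes. The region also holds 1 CCAAT, which reads ATTGG on the printed strand and is not in capitals. Of all promoter windows, 17.9% hold TTTGAA and 37.4% hold CCAAT. Neither TTCNNNGAA nor TTCNNNNGAA, the spacings bound by STAT dimers, is in the region.

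*Cx3cr1*, chr9:120068297-120068546, minus strand: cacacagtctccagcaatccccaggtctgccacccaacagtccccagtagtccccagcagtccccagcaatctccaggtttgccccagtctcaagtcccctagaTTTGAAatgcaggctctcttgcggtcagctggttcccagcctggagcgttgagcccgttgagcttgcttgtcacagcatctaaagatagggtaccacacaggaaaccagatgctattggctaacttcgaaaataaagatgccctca

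*Hpgd*, the dehydrogenase that inactivates prostaglandins, was at 9.73 to 36.7 CPM in M0 (median 19.4), 0.0574 to 1.33 CPM in M1 (median 0.481) and 0.340 to 1.64 CPM in M2 (median 1.28). *Slc40a1*, the iron exporter ferroportin, was at 425 to 1374 CPM in M0 (median 874), 40 to 67.1 CPM in M1 (median 45.5) and 65.9 to 126 CPM in M2 (median 73.7). *Bmp2*, a growth factor of the TGF-β superfamily, was at 18.6 to 31.7 CPM in M0 (median 21.1), 0.228 to 1.48 CPM in M1 (median 0.533) and 0.973 to 4.26 CPM in M2 (median 2.06). For none of these genes did a polarized library reach the lowest M0 library. Their log2 fold changes were -5.19 (SE 0.21) and -4.16 (SE 0.19) for *Hpgd*, -3.99 (SE 0.12) and -3.31 (SE 0.11) for *Slc40a1*, and -5.14 (SE 0.16) and -3.53 (SE 0.14) for *Bmp2*, in M1 and M2.

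*S1pr1*, a receptor for sphingosine 1-phosphate that guides cells out of tissue, was at 95.3 to 150.5 CPM in M0 (median 130.4), 2.04 to 6.21 in M1 (median 3.33) and 8.30 to 30.2 in M2 (median 13.7). *Cxcr4*, which retains leukocytes in bone marrow, was at 76.3 to 172 CPM in M0 (median 129), 3.42 to 7.56 in M1 (median 4.87) and 15.3 to 32.6 in M2 (median 25.7). M1 lay below M2 in every library for *Cxcr4*, with log2 fold changes of -4.63 (SE 0.13) and -2.29 (SE 0.11). The order was reversed for *Cd14*, the co-receptor for LPS, at 274 to 716 CPM in M0, 59.1 to 89.2 in M1 and 34.2 to 76.6 in M2, and for *Adgre4*, an adhesion receptor of the F4/80 family, at 17 to 94, 1.95 to 7.28 and 0.526 to 5.63 CPM. M1 and M2 libraries overlapped for both of them. *Clec4d*, a C-type lectin for mycobacterial glycolipid, was at 459 to 699 CPM in M0, 21.5 to 121 in M1 and 83.7 to 132 in M2. The remaining genes of the 12 were *Igfbp4*, which binds insulin-like growth factors (log2 fold changes -4.12 and -3.05), *Adra1a*, an adrenergic receptor (-2.78 and -3.92), and *Nat8l*, which makes N-acetylaspartate (-3.76 and -2.42). All 12 fell in 15 of 15 mice with each stimulus, which the rule that named them required, with adjusted p of at most 5.1e-14.

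Per kilobase of exon, the most abundant of the 521 genes in M0 was *Lyz2*, the lysozyme of myeloid cells, at 12932 CPM per kilobase, followed by *Apoe*, the lipoprotein ligand, at 2446 and *Selenop*, the selenium carrier, at 1654. *Lyz2* alone was at 9817 to 23173 CPM in M0 (median 17251), 4505 to 8030 in M1 (median 5772) and 4051 to 7232 in M2 (median 5192), so M0 stood above both and M1 and M2 overlapped. Next came *Cd5l*, a secreted inhibitor of apoptosis in macrophages (505 CPM per kilobase), *Clec4d* (364), the platelet chemokine *Pf4* (353), the folate receptor *Folr2* (259), the membrane protein *Pmp22* (251), *Cd14* (245) and *Abhd12*, a lipase of lysophosphatidylserine (223). *Pf4* fell further in M1 (log2 fold change -2.74, SE 0.08) than in M2 (-1.18, SE 0.08), as did *Cd5l* (-2.90, SE 0.07, and -2.15, SE 0.07). *Selenop* fell by 1.96 (SE 0.15) and 2.46 (SE 0.15) on the log2 scale. In bulk RNA, fewer cells of a type and less RNA per cell cannot be told apart.

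Some genes fell by almost the same amount. *Rcbtb2* fell by 2.0 (SE 0.07) with M1 and by 2.0 (SE 0.07) with M2 on the log2 scale. *Apoe* fell by 1.37 (SE 0.08) and 1.38 (SE 0.08), and *B3galnt1*, a glycosyltransferase of globoside synthesis, by 1.14 (SE 0.04) and 1.14 (SE 0.04). *Fam83f* (-1.05 and -1.03) and the mitotic kinesin *Kif20a* (-1.11, SE 0.20, and -1.12, SE 0.20) completed the 5 most even genes. *Kif20a* was less uniform over mice, with M1 above M0 in 3 and below it in 12. They were picked for their evenness, so it is no finding.

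**Figure D2:**
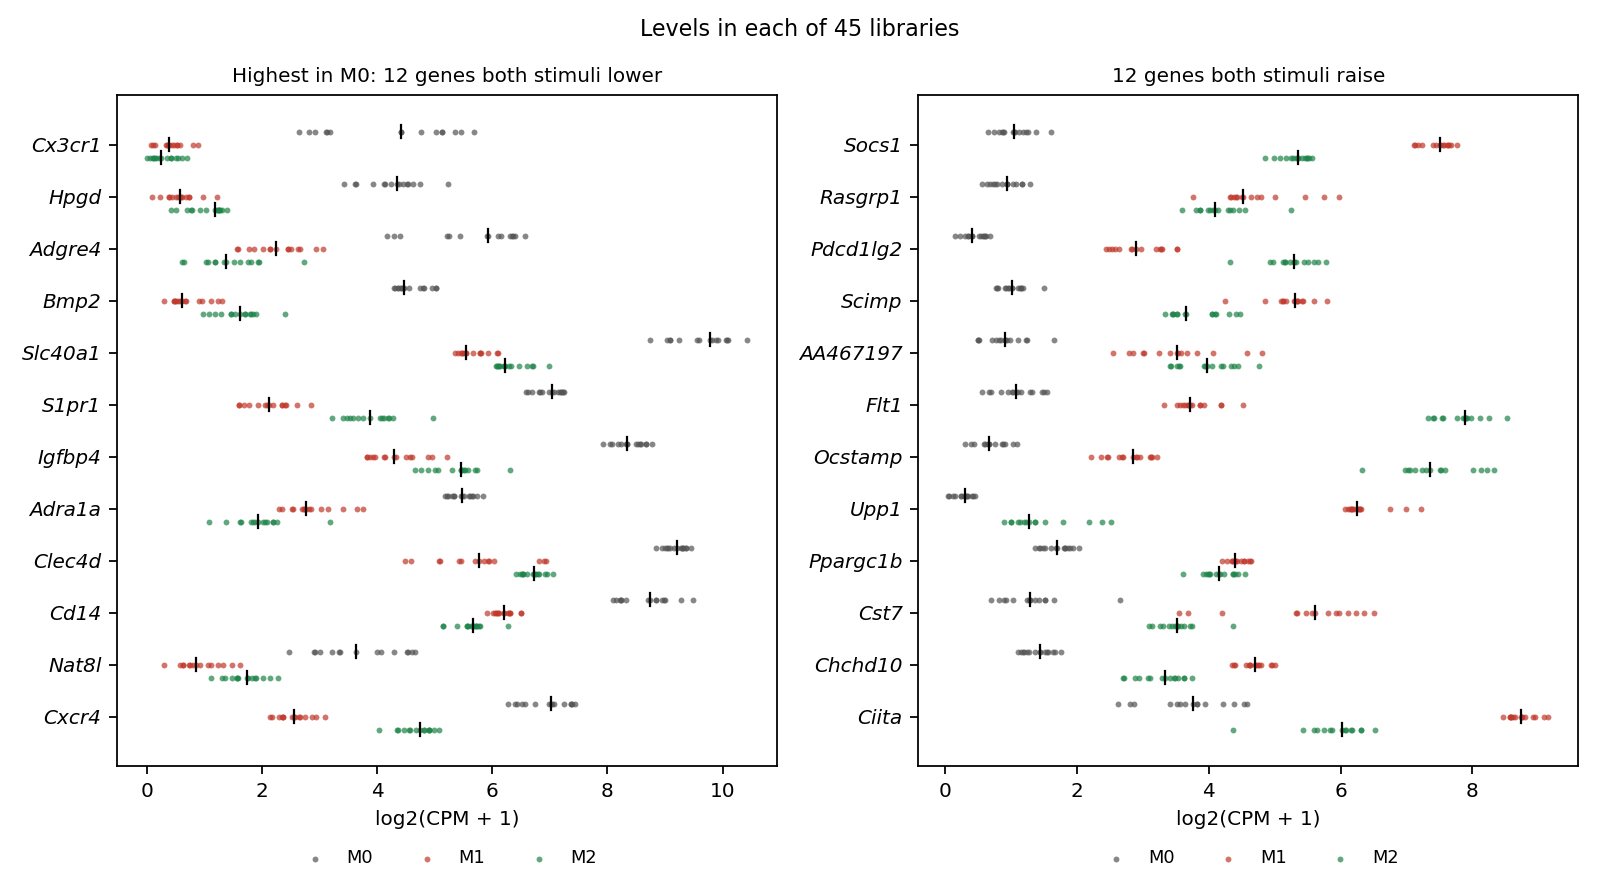
Level in each of 45 libraries as log2(CPM + 1) for the 12 genes with the strongest shared fall (left) and the 12 with the strongest shared rise (right), with a point per library and a bar at the median of 15. On the left, M0 points lie to the right of both polarized groups, and on the right they lie to the left, except that the M0 and M2 points of *Ciita* overlap.

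A list of 32 tested genes of resting and tissue macrophages was read next. With both stimuli 15 were lower, 9 of them at least 2-fold, and 1 was higher, and its median log2 fold change was -1.06 in M1 and -1.08 in M2 against -0.024 and -0.023 over all genes. *Gas6*, the bridge between dying cells and TAM receptors, was at 358 to 671 CPM in M0, 38.5 to 70.1 in M1 and 71.8 to 146 in M2. *Stab1*, a scavenger receptor, was at 912 to 1707, 134 to 244 and 234 to 569 CPM. The lysophosphatidylserine receptor *Gpr34* also fell, by 2.09 (SE 0.15) and 3.41 (SE 0.16). *Spi1*, which encodes the lineage factor PU.1, was the gene that rose (0.38, SE 0.04, and 0.22, SE 0.04). The list did not move as a block, for the complement genes *C1qa* (1.23 and -1.17) and *C1qb* (0.72 and -0.71) and the nucleotide receptor *P2ry12* (0.65 and -2.16) had opposite signs in M1 and M2.

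Among 26 receptors for chemoattractants, 8 were lower and 2 were higher with both stimuli, with medians of -0.16 and -0.71. Besides *Cx3cr1*, *S1pr1* and *Cxcr4*, the anaphylatoxin receptor *C5ar1* fell from between 414 and 681 CPM in M0 to between 92.6 and 176 CPM in M1 and between 62.4 and 317 CPM in M2. *Ltb4r1*, a leukotriene B4 receptor, rose, with log2 fold changes of 1.51 (SE 0.14) and 4.09 (SE 0.13). Without p.254I mouse 4, 4 receptors were higher, and with counts summed over each number 1 was. Of 25 genes of TGF-β signalling, 9 were lower and 2 higher (medians -0.32 and -0.07). The receptor *Tgfbr1* fell by 1.37 (SE 0.06) and 0.93 (SE 0.06), and the inhibitor *Smad6* (-1.36 and -2.73), the ligand *Tgfb2* (-2.24 and -1.20) and the latency protein *Ltbp1* (-1.84 and -2.25) fell from low levels of 2.49, 0.545 and 0.994 CPM. The type I receptor *Acvrl1* (2.37 and 0.54) and the matrix protein *Tgfbi* (1.55 and 0.98) rose.

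*Slc9a9* encodes NHE9, a sodium-proton exchanger of endosomes, and lies at chr9:94669909-95230445 on the plus strand. In p.254I mice 1 to 5 its M0 level was 15.3, 21.7, 15.1, 14.9 and 11.2 CPM, in p.254V mice 231, 308, 127, 12 and 10.9 CPM, and in p.284R mice 213, 253, 169, 162 and 139.5 CPM. The M1 levels, in the same order, were 5.28, 7.4, 6.37, 4.89 and 5.65 CPM, then 53.5, 69.8, 35.1, 5.25 and 6.00 CPM, then 45.6, 52.1, 35.6, 26.0 and 26.4 CPM. In M2 they were 2.25, 1.81, 3.35, 4.24 and 2.84 CPM, then 42.0, 50.3, 29.6, 2.41 and 2.43 CPM, then 46.4, 19.2, 12.5, 36.0 and 41.8 CPM. All p.254I mice and p.254V mice 4 and 5 were low in each polarization, and the other mice were high, so that the polarizations overlapped over mice although both polarized cultures of each mouse were below its own M0 culture. What sets the level of a mouse was not tested.

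Within mice, *Slc9a9* fell by 1.87 (SE 0.16, adjusted p 4.9e-12) in M1 and by 2.44 (SE 0.17, adjusted p 2.4e-14) in M2 on the log2 scale, and the mean of both fell by 2.16 (SE 0.13, adjusted p 1.5e-15, edgeR). M1 and M2 differed by 0.57 (adjusted p 0.0035). The paired difference in log2(CPM + 1) averaged -2.01 ± 0.535 (SD, n = 15) and was negative in 15 of 15 mice, with an exact two-sided sign-flip permutation p of 6.1e-05, the smallest that 15 pairs can give. With the 5 numbers as units the smallest would be 0.0625, and with counts summed over each number the mean change was -2.25 (adjusted p 5.5e-07, edgeR). The start region of *Slc9a9* holds 1 TGANTCA, the AP-1 motif, 96 bases before the start and 1 TTTGAA 48 bases before it, shown in capitals, and no STAT-type spacing. Of all promoter windows, 7.81% hold the former and 17.9% the latter.

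*Slc9a9*, chr9:94669642-94669891, plus strand: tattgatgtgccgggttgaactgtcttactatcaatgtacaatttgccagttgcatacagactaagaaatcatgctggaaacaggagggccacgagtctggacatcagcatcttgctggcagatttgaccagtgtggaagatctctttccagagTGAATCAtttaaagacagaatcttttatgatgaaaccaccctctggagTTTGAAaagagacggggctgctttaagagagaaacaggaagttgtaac

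*Ampd3* encodes an AMP deaminase, which turns AMP into IMP in the purine nucleotide cycle, and lies at chr7:110768206-110812405 on the plus strand. Its level was 52.2 to 84.2 CPM in M0 (median 63.7), 24.4 to 45.8 CPM in M1 (median 39.6) and 15.7 to 39.9 CPM in M2 (median 22.4). Both polarized groups lay below every M0 library and overlapped with each other. The highest M0 and M2 values came from p.254I mouse 4, whose libraries stood apart. The log2 fold change was -0.83 (SE 0.05, adjusted p 5.7e-16) in M1, -1.58 (SE 0.05, adjusted p 6.3e-23) in M2 and -1.21 (SE 0.04, adjusted p 3.4e-22) for their mean, and M2 was below M1 by 0.75 (adjusted p 1.6e-14). The paired difference averaged -1.18 ± 0.110 (SD, n = 15), negative in 15 of 15 mice, with an exact two-sided sign-flip permutation p of 6.1e-05. Over these 2 genes and the mean, M1 and M2 changes (6 comparisons) the adjusted p stayed at 6.1e-05. With counts summed over each number the mean change was -1.19 (adjusted p 1.8e-08, edgeR). Both genes overlap 2 annotated genes on the other strand.

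**Figure D3:**
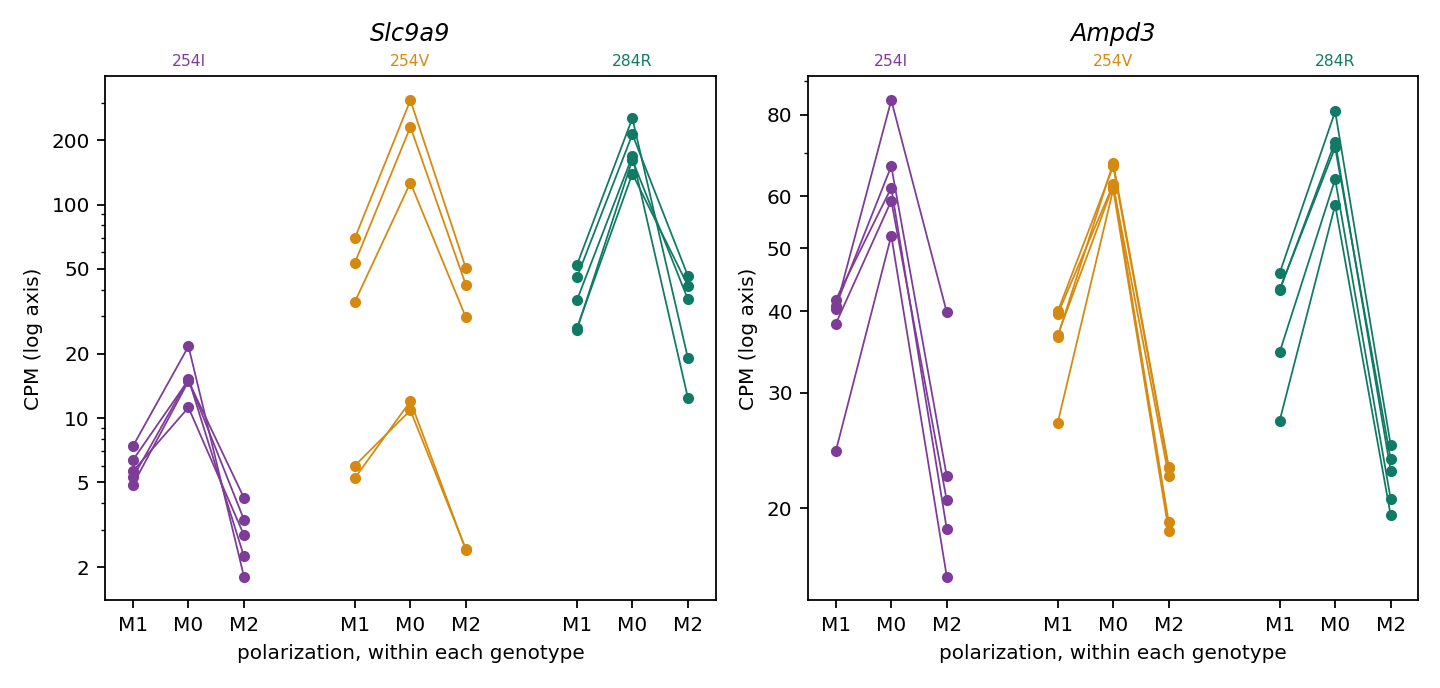
Level (CPM, log axis) of *Slc9a9* and *Ampd3* in M1, M0 and M2 cultures, a line per mouse, grouped by *Famin* genotype with 5 mice each. Every line peaks at M0, and the *Slc9a9* lines of p.254V split into 3 high and 2 low mice.

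The families of both genes did not share one direction. Of 8 tested sodium-proton exchangers, 4 were lower and 2 higher with both stimuli (medians -0.55 and -0.40). *Slc9a7*, an exchanger of the trans-Golgi network, fell by 2.21 (SE 0.11) in M1 and 0.87 (SE 0.11) in M2, and the scarcer *Slc9a5* (-0.61 and -1.23) and *Slc9b2* (-0.49 and -1.63) also fell. *Slc9a8* was called higher (0.22 and 0.08) but not in both with total counts, the upper quartile or no mouse block. With counts summed over each number neither *Slc9a8* (adjusted p 0.065, edgeR) nor *Slc9b2* (0.063) was called, which left 1 higher and 3 lower.

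Of 21 genes of the purine nucleotide cycle, purine salvage and degradation, 5 were higher and 4 lower with both stimuli (medians 0.10 and 0.08). *Gda*, which deaminates guanine, rose by 1.27 (SE 0.14) and 2.98 (SE 0.15). *Adsl*, which splits adenylosuccinate, rose by 0.27 (SE 0.05) and 0.68 (SE 0.04). *Ampd2*, the other AMP deaminase called, rose by 0.10 (SE 0.03) and 1.36 (SE 0.03), but its M1 value was -0.00 with total counts, where 3 genes of the list were higher. Next to *Ampd3*, the nucleotidase *Nt5c2* (-0.21 and -0.47), xanthine dehydrogenase *Xdh* (-0.24 and -0.67) and the adenine salvage enzyme *Aprt* (-0.11 and -0.16) fell by smaller amounts. With counts summed over each number *Aprt* (adjusted p 0.11, edgeR) and *Xdh* (0.092) were not called, and 2 genes were lower. *Aprt* was not called in both without the filter on low counts, and 3 genes of the list were lower without p.254I mouse 5, p.254V mouse 5, p.284R mouse 4 or p.284R mouse 5.

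Genes of cell division were lower in both polarized states. They encode cyclins, kinases, kinesins and centromere proteins made as cells enter mitosis. Of 38 tested, 29 were lower and 0 higher with both stimuli, 7 of them lower at least 2-fold, with median log2 fold changes of -0.64 in M1 and -1.18 in M2 against -0.024 and -0.023 over all genes. Without the 3 libraries that stood apart 29 were again lower, and leaving out any single mouse gave 28 to 30. Summed over each replicate number 19 were lower, and 32 were with number by stimulus in the model. Fitted in a single genotype with 5 mice, 8 were called in p.254I, 24 in p.254V and 16 in p.284R.

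*Mki67*, the proliferation antigen that coats mitotic chromosomes, was at 52.8 to 114 CPM in M0 (median 94.3), 23.2 to 74.5 in M1 (median 34.4) and 18.5 to 58.3 in M2 (median 30.8). *Cenpf*, a kinetochore protein, was at 10.4 to 26.3 CPM in M0 (median 17.4), 1.75 to 17.8 in M1 (median 5.63) and 2.07 to 10.0 in M2 (median 4.48). *Ccnb2*, a cyclin partner of CDK1, was at 9.50 to 25.9, 3.16 to 23.0 and 2.71 to 11.6 CPM. The M1 libraries of all 3 genes overlapped the M0 libraries. *Cenpf* changed by -1.39 (SE 0.24, adjusted p 6.0e-06) in M1 and -1.94 (SE 0.25, adjusted p 2.2e-08) in M2. *Cdc20*, the activator of the anaphase-promoting complex, changed by -1.11 (SE 0.21) and -1.25 (SE 0.21), and the phosphatase *Cdc25c* by -1.14 (SE 0.19) and -1.63 (SE 0.20). Not all members moved with them. Securin, *Pttg1*, had values of 0.75 in M1 and -0.55 in M2, and the spindle protein *Tpx2* of 0.52 and -0.80.

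**Figure D4:**
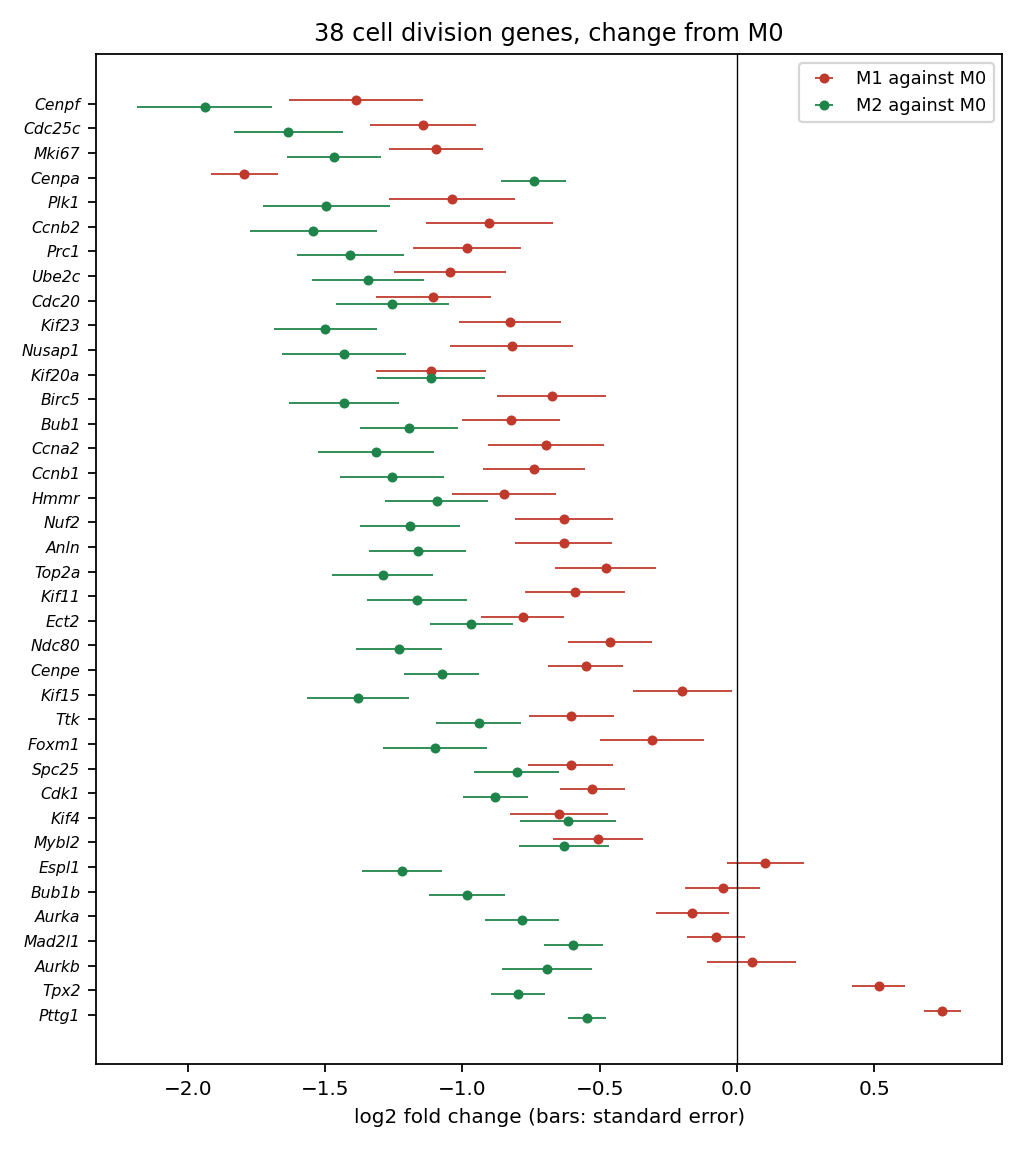
Log2 fold change against M0 with its standard error for the 38 tested cell division genes in M1 and in M2 (15 mice). The M2 points lie below 0 for all 38 genes, and the M1 points lie above 0 for a few, *Pttg1* and *Tpx2* among them.

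The start regions of these genes have known letters in common. TTTGAA is the core of the cell cycle homology region bound by the DREAM and MuvB complexes, and CCAAT is bound by NF-Y. In windows from 250 bases before to 50 bases after the RefSeq start, searched on both strands, TTTGAA stood in 75.0% of 28 windows of the lowered division genes (26 of 29 genes matched) and CCAAT in 78.6%, against 17.9% and 37.4% of all 32851 windows. Both stood in 67.9% against 6.95%. The E2F letters GGCGGGAA stood in 0 of the 28 and in 2.19% of all windows. The same hexamer stood in 13.6% of the 484 windows of the 521 genes lowered at least 2-fold, in 12.1% of the 12821 windows of all genes tested and, as above, in 17.9% of all windows. The stretches below are shown because both motifs, in capitals, lie close to the start in *Cenpf*, *Ccnb2* and *Kif23*, a kinesin of cytokinesis, whereas *Mki67* has TTTGAA 2 times and no CCAAT in its printed part. An ATTGG is CCAAT on the other strand, and a match is not a measured binding site.

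*Cenpf*, chr1:189688057-189688206, minus strand: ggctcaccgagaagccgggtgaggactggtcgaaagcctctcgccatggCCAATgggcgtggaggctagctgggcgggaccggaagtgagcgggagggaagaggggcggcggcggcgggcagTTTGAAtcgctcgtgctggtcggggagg
*Ccnb2*, chr9:70421525-70421674, minus strand: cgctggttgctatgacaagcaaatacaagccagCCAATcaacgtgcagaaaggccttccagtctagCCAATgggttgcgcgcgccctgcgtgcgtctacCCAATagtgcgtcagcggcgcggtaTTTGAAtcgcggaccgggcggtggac
*Kif23*, chr9:61946770-61946919, minus strand: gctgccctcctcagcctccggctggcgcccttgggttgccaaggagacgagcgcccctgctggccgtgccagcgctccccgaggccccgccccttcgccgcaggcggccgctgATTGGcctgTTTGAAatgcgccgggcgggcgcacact
*Mki67*, chr7:135716350-135716499, minus strand: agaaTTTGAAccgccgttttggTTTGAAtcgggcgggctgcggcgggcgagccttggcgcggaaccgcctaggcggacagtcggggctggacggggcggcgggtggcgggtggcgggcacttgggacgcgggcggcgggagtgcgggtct

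Genes of DNA replication moved less. Of 42 tested, 11 were lower and 2 higher with both stimuli (medians -0.19 and -0.35). The helicase subunit *Mcm6* fell by 0.79 (SE 0.11) and 0.53 (SE 0.10), thymidine kinase *Tk1* by 0.91 (SE 0.19) and 1.58 (SE 0.19), thymidylate synthase *Tyms* by 0.58 (SE 0.13) and 0.62 (SE 0.13), and the licensing factor *Cdt1* by 0.38 (SE 0.07) and 0.50 (SE 0.07). The nuclease *Dna2* rose by 1.06 (SE 0.07) and 0.54 (SE 0.07) and the clamp loader subunit *Rfc5* by 0.28 (SE 0.05) and 0.61 (SE 0.05). The count of lower genes was 19 with total counts, 17 with the upper quartile, 17 without p.254V mouse 2, 7 without p.284R mouse 4 or mouse 5, and 7 without the 3 libraries that stood apart. It was 5 with counts summed over each number and 20 with number by stimulus in the model.

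Regulators of the cycle went both ways, with 6 of 32 higher and 6 lower (medians 0.08 and -0.21). The CDK inhibitor *Cdkn1a* (p21) was at 419 to 606 CPM in M0 (median 457), 644 to 953 in M1 (median 849) and 631 to 904 in M2 (median 689). Every polarized library was above every M0 library, with log2 fold changes of 0.78 (SE 0.05) and 0.65 (SE 0.05). *Cdkn1c* (p57), another inhibitor of the same family, was at 4.49 to 12.1 CPM in M0, 0.388 to 1.5 in M1 and 1.13 to 2.39 in M2, and fell by 3.04 (SE 0.11) and 2.07 (SE 0.10). The inhibitor *Cdkn2c* (-0.54 and -1.18), the kinase *Cdk6* (-0.92 and -0.34) and the retinoblastoma gene *Rb1* (-0.46 and -0.42) also fell, and the MYC partner *Max* (1.01 and 0.32) and *E2f4* (0.31 and 0.49) rose.

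Of 20 targets of p53, 9 were higher and 3 lower with both stimuli (medians 0.39 and 0.19). Beside *Cdkn1a*, the exonuclease *Aen* rose by 0.78 (SE 0.07) and 0.96 (SE 0.07), *Ccng1* by 0.67 (SE 0.04) and 0.48 (SE 0.04), and the antiproliferative *Btg2* by 0.64 (SE 0.05) and 0.64 (SE 0.05). *Sesn1* (-1.94 and -1.24), which restrains mTORC1, the damage sensor *Ddb2* (-0.78 and -0.82) and *Gdf15* (-0.41 and -1.61) fell, and 2 genes were lower without mouse 2 of any genotype and with counts summed over each number, where *Gdf15* was not called (adjusted p 0.13, edgeR). Of 20 genes tied to FOXO factors and quiescence, 8 were lower and 3 higher (medians 0.00 and -0.53). *Gadd45a* fell by 1.96 (SE 0.12) and 1.55 (SE 0.12), *Foxo4* by 0.79 (SE 0.07) and 0.76 (SE 0.07), and the cyclin *Ccng2* by 0.60 (SE 0.08) and 0.66 (SE 0.08), whereas *Klf4*, a factor of the myeloid lineage, rose by 1.01 (SE 0.11) and 3.15 (SE 0.11).

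Of the genes both stimuli raised, *Socs1* had the largest smaller change. SOCS1 is the feedback inhibitor that binds JAK kinases and dampens both interferon and IL-4 signals. It was at 0.571 to 2.03 CPM in M0 (median 1.07), 138 to 217 CPM in M1 (median 182) and 28.0 to 46.6 CPM in M2 (median 39.8), so the 3 groups did not overlap. The log2 fold changes were 7.32 (SE 0.13, adjusted p 2.7e-30) and 5.14 (SE 0.13, adjusted p 6.4e-26). The gene is at chr16:10782240-10785536 on the minus strand, and its window of 300 bases holds no TTCNNNGAA or TTCNNNNGAA, and of the other motifs searched it holds a CCAAT.

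*Rasgrp1*, an exchange factor that activates Ras downstream of diacylglycerol, was at 0.475 to 1.44 CPM in M0 (median 0.911), 12.6 to 61.7 CPM in M1 (median 22.0) and 11.0 to 36.9 CPM in M2 (median 16.1). M1 and M2 overlapped, and the log2 fold changes were 4.92 (SE 0.23) and 4.33 (SE 0.23). *Pdcd1lg2*, which encodes the T cell inhibitory ligand PD-L2, was at 0.110 to 0.602 CPM in M0 (median 0.332), 4.44 to 10.5 CPM in M1 (median 6.47) and 19.0 to 53.7 CPM in M2 (median 38.1). Here M2 lay above M1 in every library, with log2 fold changes of 4.20 (SE 0.18) and 6.65 (SE 0.17). Both start regions are shown because each holds STAT letters, in capitals, TTCNNNGAA in *Rasgrp1* and TTCNNNNGAA in *Pdcd1lg2*. Among 131 windows of the 150 genes raised at least 2-fold (109 genes matched), 11.5% held TTCNNNGAA, 9.92% TTCNNNNGAA and 15.3% the AP-1 letters TGANTCA, against 8.30%, 6.95% and 7.81% of all windows. In the 12821 windows of all genes tested the shares were 6.8%, 5.6% and 5.4%.

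*Rasgrp1*, chr2:117342878-117343127, minus strand: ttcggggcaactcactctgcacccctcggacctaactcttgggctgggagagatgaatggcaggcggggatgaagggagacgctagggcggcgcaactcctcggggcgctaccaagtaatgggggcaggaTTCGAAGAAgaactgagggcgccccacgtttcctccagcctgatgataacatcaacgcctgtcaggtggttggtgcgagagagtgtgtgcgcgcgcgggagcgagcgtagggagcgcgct
*Pdcd1lg2*, chr19:29410669-29410918, plus strand: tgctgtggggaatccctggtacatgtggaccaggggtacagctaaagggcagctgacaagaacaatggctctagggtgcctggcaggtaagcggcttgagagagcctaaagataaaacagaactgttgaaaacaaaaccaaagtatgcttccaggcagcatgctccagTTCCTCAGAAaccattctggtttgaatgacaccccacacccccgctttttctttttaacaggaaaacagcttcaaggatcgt

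The other 9 of the 12 leading genes leaned toward one stimulus or the other. *Scimp*, an adaptor of Toll-like receptor and MHC class II signalling, was at 0.703 to 1.83 CPM in M0, 17.9 to 54.2 in M1 and 9.07 to 21.1 in M2. *Ppargc1b*, the coactivator PGC-1β of mitochondrial genes, was at 1.56 to 3.08, 17.4 to 23.8 and 11.3 to 22.4 CPM (log2 fold changes 3.21, SE 0.08, and 2.91, SE 0.08). Higher in M2 were *Flt1*, a VEGF receptor, at 0.469 to 1.91 CPM in M0, 8.99 to 22.0 in M1 and 159 to 369 in M2, and *Ocstamp*, a protein of macrophage and osteoclast fusion, at 0.235 to 1.12, 3.63 to 8.33 and 79.2 to 322 CPM. The M1 levels of both lay above every M0 library and far below M2. The reverse held for uridine phosphorylase *Upp1*, at 0.0328 to 0.373 CPM in M0, 66.3 to 148 in M1 and 0.851 to 4.70 in M2, and for *Ciita*, the coactivator of MHC class II genes, whose M0 (5.15 to 22.9 CPM) and M2 levels (19.7 to 91.0 CPM) overlapped. *Cst7*, a cysteine protease inhibitor of endosomes (4.92 and 2.81), *Chchd10*, a mitochondrial intermembrane protein (3.91 and 2.40), and *AA467197* (3.58 and 4.10) completed the list, and all 12 rose in 15 of 15 mice, as the rule required, with adjusted p of at most 1.8e-10.

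*Jak2*, the kinase of IFN-γ and growth factor receptors, had the most even response among genes raised at least 2-fold with a mean of at least 10 CPM. It was at 46.5 to 61.3 CPM in M0 (median 57.5), 121 to 174 in M1 (median 135) and 119 to 161 in M2 (median 133), and the polarized groups covered nearly the same range above M0. The log2 fold changes were 1.32 (SE 0.05) and 1.30 (SE 0.05), and M1 and M2 were not called different (adjusted p 0.72, edgeR). *Jak2* and the genes that follow were picked for their evenness, so it is no finding. *Slc25a5*, which exchanges ADP and ATP across the mitochondrial inner membrane (1.37, SE 0.05, and 1.34, SE 0.05), the ATP synthase subunits *Atp5b* (1.12, SE 0.04, and 1.09, SE 0.04) and *Atp5g3* (1.07, SE 0.04, and 1.03, SE 0.04), and *Tifab*, a regulator of TRAF6 signals (1.42, SE 0.05, and 1.53, SE 0.05), followed.

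Of 33 genes of JAK-STAT signalling, 7 were higher and 3 lower with both stimuli (medians 0.34 and -0.12). *Cish*, a SOCS family member, rose by 1.28 (SE 0.15) in M1 and 6.41 (SE 0.12) in M2, and the kinase *Pim1*, a STAT target, by 1.79 (SE 0.04) and 0.84 (SE 0.04). The IFN-γ receptor chain *Ifngr1* fell by 0.55 (SE 0.06) and 0.40 (SE 0.06), and *Stat4* (-0.96 and -3.04) and the STAT3 inhibitor *Pias3* (-0.22 and -0.60) also fell. Total counts gave 5 lower genes.

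Of 20 genes of antigen presentation and T cell co-signals, 12 were higher and 0 lower with both stimuli, 8 of them at least 2-fold, with medians of 3.70 in M1 and 0.51 in M2. M1 alone raised 18 of the 20 and lowered 0, whereas M2 alone raised 12 and lowered 4. The invariant chain *Cd74* was at 250.3 to 687 CPM in M0 (median 423), 6271 to 9701 in M1 (median 8317) and 995 to 2582 in M2 (median 1999), without overlap between the groups. *H2-DMa*, which loads peptides onto class II molecules, rose by 4.05 (SE 0.08) and 1.69 (SE 0.07). H2 genes are near copies of each other and *H2-DMa* overlaps 3 genes on the other strand, so reads of these genes are uncertain. Dendritic cell markers, of which 1 of 4 tested was higher with both, summed to between 0.745 and 2.31 CPM in M0, 209 and 432 CPM in M1 and 4.14 and 14.2 CPM in M2, and their part in the list was not tested.

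Of 35 genes of ribosome production, 15 were higher and 0 lower (medians 0.09 and 0.79), among them the nucleolar methyltransferase *Fbl* (0.64, SE 0.10, and 0.91, SE 0.10), *Dkc1*, which modifies ribosomal RNA (0.60 and 1.34), and the processing factors *Rrp12* (0.64 and 0.88) and *Noc4l* (1.58 and 0.49). M1 alone raised 15 of the 35 ribosome genes and lowered 6, whereas M2 alone raised 35 and lowered 0. Of 23 genes of sterol synthesis and uptake, 5 were higher and 0 lower (medians -0.47 and 0.83). In M1 alone 15 of the 23 were lower and 6 higher, whereas in M2 alone 22 were higher and 1 lower. *Nsdhl* rose by 0.75 (SE 0.05) and 0.92 (SE 0.05), *Dhcr7* by 0.47 (SE 0.06) and 0.68 (SE 0.06), and *Ebp* by 0.40 (SE 0.04) and 0.29 (SE 0.04).

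Of 28 genes that restrain inflammation, 5 were lower and 3 higher (medians 0.09 and -0.18). With counts summed over each number 1 was higher, and with number by stimulus in the model 5 were. The nuclear receptor *Nr4a1* fell by 1.23 (SE 0.19) and 1.36 (SE 0.20), the inhibitor of Toll-like receptor signals *Irak3* by 0.62 (SE 0.06) and 1.09 (SE 0.06), and the phosphatase *Dusp1* by 0.49 (SE 0.09) and 0.62 (SE 0.09), while the TRAF-binding *Tank* rose by 0.59 (SE 0.09) and 0.51 (SE 0.09). Of 20 genes of cell fusion and the osteoclast program, *Ocstamp* was the 1 that was higher, and the inhibitory receptor *Sirpa* (-1.0 and -0.54), the adaptor *Tyrobp* (-0.29 and -0.15) and the RANK gene *Tnfrsf11a* (-0.37 and -0.45) were the 3 lower with both (medians -0.81 and 0.82).

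Read against the 18.5% of all genes that were higher and the 21.7% that were lower with both stimuli, the cycle regulators (18.8% each way) and the purine genes (23.8% higher and 19.0% lower) were near the background both ways. Near it in one direction and under it in the other were the JAK-STAT genes (21.2% higher and 9.09% lower), the sterol genes (21.7% and 0%), DNA replication (4.76% and 26.2%) and the restraining genes (10.7% and 17.9%). Genes of cell fusion were under it both ways (5% and 15%). Farther above it on the lower side were cell division (76.3%), the exchangers (50%, of 8 genes, with 25% higher), resting macrophage genes (46.9%), FOXO and quiescence genes (40%, with 15% higher), TGF-β genes (36%) and the chemoattractant receptors (30.8%). On the higher side they were antigen presentation (60%), p53 targets (45%, with 15% lower) and ribosome production (42.9%). M2 raised all 35 ribosome genes, so their shared share equals that of M1 alone, which raised 38.9% of all genes. Likewise M2 lowered all 38 division genes, so their shared share equals that of M1 alone, which lowered 41.9% of all genes. For antigen presentation, the 12 shared genes were all that M2 raised, and M2 alone raised 38.6% of all genes. No test was made of a list against the other genes.

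**Figure D5:**
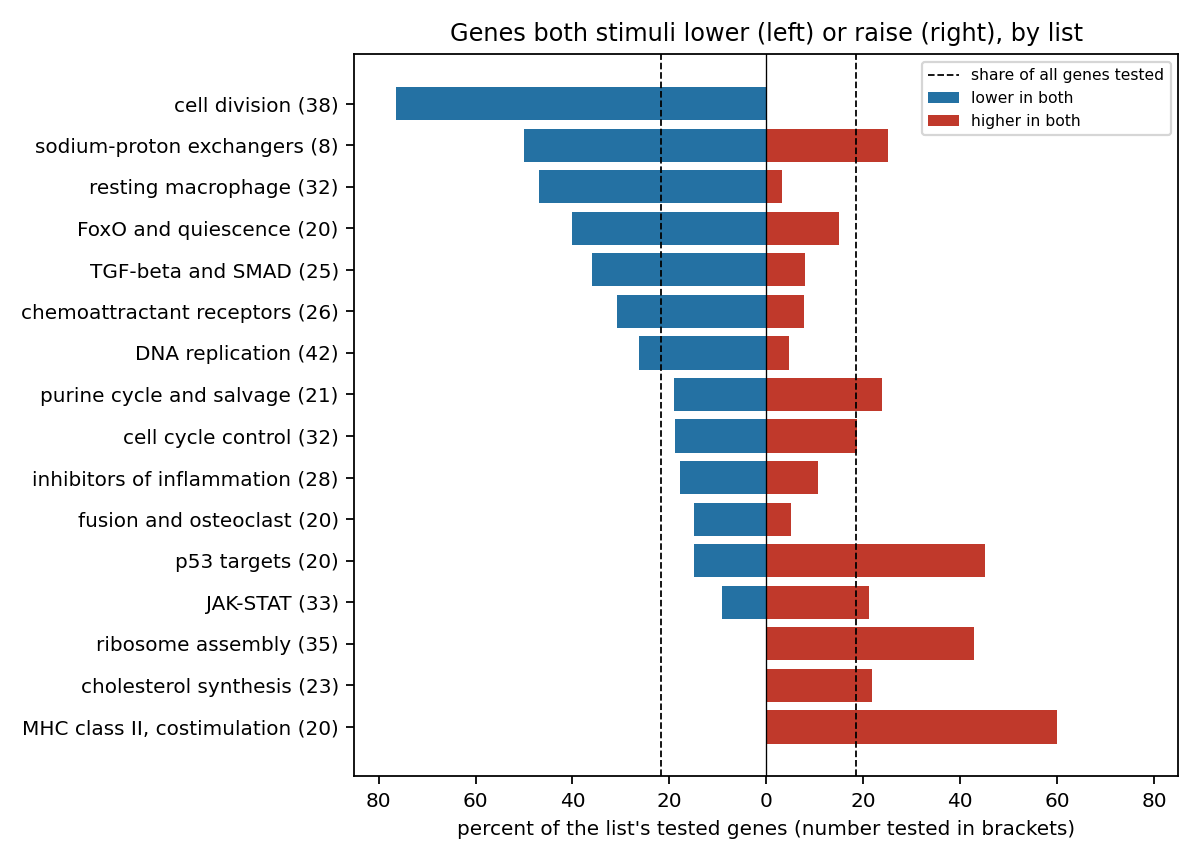
Percent of each list's tested genes called lower (left of 0) or higher (right) with both stimuli, with the number tested in brackets and dashed lines at the shares of all 12905 genes (21.7% lower, 18.5% higher). The bars of cell division, resting macrophage genes and the sodium-proton exchangers reach farthest on the left, and that of antigen presentation (MHC class II and costimulation) reaches farthest on the right.

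Some shared calls rested on a level that was minute in the other state. Of the 150 raised genes, 43 stayed under 1 CPM in the lower of the polarized groups, and 9 had less than 1% of their other polarized level there. *Gbp2b*, an interferon-induced GTPase, averaged 0.205 CPM in M0, 1661 in M1 and 0.662 in M2, the protease inhibitor *Serpina3g* 0.847, 2086 and 3.63 CPM, the nitric oxide synthase *Nos2* 0.0316, 37.6 and 0.286 CPM, and the chemokine *Ccl22* 0.502, 1.5 and 157 CPM. *Gbp11*, *Retnla*, *Rnase2a*, *Arg1* and *Kcnd3* were the others, named after their values were seen. Of these, *Retnla*, *Arg1* and *Kcnd3* were not called raised at least 2-fold by both without the M1 library of p.254I mouse 5. Whether the small second rise of any of the 9 genes came from the stimulus was not tested. With at least 1 CPM in M1 and in M2, 107 of the 150 remained, and with at least 1 CPM in M0, 358 of the 521.

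The shared change was compared between the *Famin* genotypes, which asks whether the variants altered the common response. The test of genotype on the mean change called 0 of 12905 genes (0%) by edgeR, and 141 had an unadjusted p under 0.05. With number by stimulus in the model it called 0, with 458 unadjusted. DESeq2 called 0 adjusted and 113 unadjusted, and limma-voom with the mouse blocks 0 and 136. Each of these unadjusted counts was below the share of 0.05 that chance alone would give, so the test was conservative. Without a term for number, changes shared by mice of the same number stay in its error. The 0 calls therefore do not show that the genotypes responded alike. The smallest p belonged to *1700028J19Rik*, *Fbxo47*, *Pvrig*, *Dlec1* and *Ly6g6d*, none of which reached 1 CPM per kilobase in M0. Fitted in each genotype alone, 1252 of the 2383 raised and 1291 of the 2796 lowered genes were called in all 3, and 96 of the 150 and 297 of the 521 at least 2-fold. An opposite sign in some genotype was seen for 2 of the 150 and 0 of the 521.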

How the data were processed

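RNA of 45 cultures was measured, and each library's group and number come from its label. The study describes stranded mRNA libraries aligned to mm10. Its methods name TrimGalore and HISAT2, whereas the series description names Cutadapt and STAR, and the counting tool and its use of strand are not given in the sources used here. The authors deposited raw counts per Ensembl gene (29307 genes), which were used as deposited. The deposited CPM table was not used here, and the lane of each library is not given in the sources used here.

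The study's description gives 5 mice per genotype, so libraries with the same genotype and number were taken as cultures of 1 mouse. Their deviations from the group means correlated over 0.1 in 38 of 45 pairs (-0.187 to 0.652, median 0.312, 8614 genes). Libraries of different mice were not correlated for comparison, so these values cannot tell a shared mouse from a shared number. Tests on the counts used edgeR 4.0.16 under R 4.3.3 (filterByExpr over 9 groups, TMM factors 0.939 to 1.10, glmQLFit with robust dispersions), with the 15 mice as blocks and terms for M1 and M2. Contrasts were the mean of M1 and M2 minus M0, each alone, and M1 minus M2, with Benjamini-Hochberg adjustment over all 12905 genes tested. With these blocks, p-values measure how the changes between polarizations vary from mouse to mouse, not how levels differ between mice. Mice of the same number in different genotypes changed alike, so numbers were also put in the model by stimulus or their mice summed. Both were chosen after seeing the data. The genotype test is an F test of the interaction with the mean change. *Slc9a9* and *Ampd3* were also tested by exact sign-flip permutation of log2(CPM + 1), pseudocount 1. The fits were tested on simulated data with known changes.

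Genes were named by rule. These are *Slc9a9*, *Ampd3*, the 12 raised and 12 lowered with the largest smaller fold among genes with a mean of at least 10 CPM that moved in all 15 mice, the 5 each way with the most even folds, the 10 most abundant lowered genes per kilobase in M0, up to 4 per list each way, and the 5 with the smallest genotype p. Members and lists were chosen with earlier results of these data known. Genes outside the rule are named as markers, as examples that moved otherwise in a list, or at thresholds, and were picked after their values were seen. Identifiers were matched to GENCODE vM21 on GRCm38 (29146 of 29307), and start regions were taken from RefSeq on GRCm38.p6. Alternatives used DESeq2 1.42.0, limma 3.58.1, other scalings and filters, no mouse block, single genotypes and each mouse left out. Leaving out the libraries that stood apart and the level minimum of 1 CPM were added after seeing the data. Some items that the rules name are not reported here. At these depths the fewest counts per library were 17239009, so values under 1 CPM rest on few reads.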

Additional observations from a re-analysis of the deposited data

Results flagged for a closer look

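For *Slc9a9*, *Ampd3* and the genes named by the leading, evenness and abundance rules, 43 in all, the mean change of M1 and M2 from M0 was examined for a mouse far from the other 4 of its genotype. In 7 of 129 groups the gap passed Dixon's 95% limit for 5 values (0.71), and chance alone passes about 1 group in 20. Values are log2 changes. *Rasgrp1* rose by 4.07 in p.254V mouse 2 and by 3.52 to 3.65 in the others. *Pdcd1lg2* rose by 4.09 in p.284R mouse 5 (others 3.45 to 3.56), and *Flt1* by 4.27 in p.284R mouse 1 (others 4.87 to 4.93). *Cd5l* changed by -2.93 in p.284R mouse 3 (others -2.66 to -2.55) and *Pf4* by -1.65 in p.254V mouse 1 (others -2.13 to -2.04). *Ampd3* changed by -1.37 in p.254I mouse 2 (others -1.12 to -1.05) and by -1.42 in p.254V mouse 2 (others -1.18 to -1.09). Both *Ampd3* mice carry the number 2, and p.284R mouse 2 changed by -1.30. All 7 mice moved in the direction of their group.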

How the results depend on the processing

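The shared changes of *Slc9a9* and *Ampd3* kept their sign and their call under all 30 alternatives run for each, and the genotype test called no genes with numbers in the model. Mice summed by number (with 13640 genes tested) gave 9460 genes with a called mean change, 166 raised and 572 lowered at least 2-fold, and numbers in the model gave 10487, 149 and 522. Leaving out each mouse in turn gave 10109 to 10234 genes with a called mean change, 2326 to 2451 raised and 2663 to 2771 lowered by both stimuli, 138 to 157 and 516 to 543 at least 2-fold, 0 genes in the genotype test, and changes of -2.19 to -2.07 for *Slc9a9* and -1.21 to -1.18 for *Ampd3*. Without the replicate block for mice, 2205 genes were raised and 2593 lowered, 144 and 536 at least 2-fold, the mean change was called for 9691 genes, *Slc9a9* changed by -2.20 and *Ampd3* by -1.19, and 4 neutrophil markers in place of 7 were lower. The largest moves came with fewer samples or other filters. In p.254I alone 1515 genes were raised and 1618 lowered, and in p.284R alone 1693 were lowered. With at least 10 counts in every library, 74 genes were raised and 215 lowered at least 2-fold, and without a filter on low counts 787 were lowered. A test against a 1.5-fold change (glmTreat), which sets no 2-fold limit on the estimate, gave 245 raised genes. *Slc9a9*, *Ampd3* and the genes named by the leading, evenness and abundance rules, 43 in all, kept their direction and call in every alternative in which they were tested, which for 35 of them includes at least 10 counts in every library. Single genotypes and the 1.5-fold test were not run for single genes, and those named within lists alone were counted separately, with the changes given beside their lists. Depth limits the genes under 1 CPM in M0, which were 78 of the 150 raised and 163 of the 521 lowered.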

Other observations

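Genes of the mitochondrial respiratory chain and ATP synthase were raised together, a group chosen by gene symbol after the values were seen and given as a description. Of 77 tested, 73 were higher and 1 lower with both stimuli, against 18.5% and 21.7% of all genes. The median log2 fold changes were 0.61 in M1 and 0.58 in M2, and 3 genes were raised at least 2-fold by each.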
